A study of Oryza sativa with 4 samples.

Results

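Chromatin modifiers and remodelers were represented by 52 rice cDNA probes of the 21495 non-control probes on each array. A probe belonged to them when its description names chromatin, a histone deacetylase, acetyltransferase or methyltransferase, a DNA methyltransferase, a SET domain, a bromodomain, a chromodomain, SNF2, polycomb, enhancer of zeste or a high mobility group protein, with Argonaute left out. The RNA came from branching panicles of rice TP309: panicles carrying an RFL dsRNAi construct, panicles carrying an RFL antisense construct, and wild type panicles. RFL corresponds in rice to LEAFY, which directs floral meristem identity in plants, and the labels describe the transgenic panicles as knocked down for it. On each of the 4 arrays transgenic and wild type RNA were hybridized together in different dyes, with 2 arrays per construct and the dyes exchanged between them. The promoters of the constructs and the number of plants or lines behind each RNA pool are not given in the sources used here. The submitters call the pools independent; for the antisense pair the sample titles leave this unsettled, so p-values measure only how these arrays vary, which may be technical variation.

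DNA in the nucleus is wrapped around histones, and the packing decides how readily a gene can be transcribed. Histone deacetylases remove acetyl groups from histone tails, which is generally linked to lower transcription, while bromodomain proteins bind acetylated tails. SET domain proteins are mostly histone lysine methyltransferases, and enhancer of zeste is the catalytic SET protein of Polycomb repressive complexes, which in plants hold flowering and floral organ genes silent. DNA methyltransferases maintain or add cytosine methylation, remodelers use ATP to move nucleosomes, and assembly factors bring histones to DNA.

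The descriptions give the nearest known sequence, which is a maize one for 33 of the 52 cDNAs, a rice one for 6, an Arabidopsis one for 6 and a human or mouse one for 7. There were 41 distinct descriptions, 8 of which were shared by 19 cDNAs, so cDNAs with the same description are either close relatives or copies of 1 gene. By these descriptions the cDNAs fell into 11 histone deacetylases, 13 SET domain proteins, 3 polycomb or enhancer of zeste proteins, 8 DNA methyltransferases, 5 bromodomain proteins, 3 remodelers and 9 chromatin assembly factors. No description matched a histone acetyltransferase, a chromodomain protein or a high mobility group protein (0 cDNAs). Of the 52, 48 passed the filter on dim probes and were tested, and 47 of these were well above background in both channels of all 4 arrays.

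Across the arrays, 16106 to 18191 probes stood well above background in transgenic RNA and 14722 to 17270 in wild type RNA. No description on the array names RFL (0 probes), so the targeted gene's level was not analysed here. All 10 probes of the panicle and floral meristem list (KNOX and MADS-box genes) were well above background in every channel, while 4 of 9 seed storage probes and 5 of 9 anther and pollen probes never were. The summed intensity of the anther and pollen list was 11731 to 14152 in dsRNAi panicles against 9833 to 10311 in the wild type panicles of the same arrays. In antisense panicles the sum was 10478 to 13838, against 6095 to 6528 in theirs. That of the green tissue list was 43790 to 43933 in dsRNAi panicles against 57212 to 58956 in the wild type panicles of the same arrays, and 23620 to 25549 in antisense panicles against 21055 to 23134 in theirs. The part of these tissues in the results below was not tested. In such bulk RNA, fewer cells of a type and less RNA per cell cannot be told apart. Construct, scan day and scanner software version coincided, so they cannot be told apart in any comparison between constructs.

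In the mean of both constructs, 16 of the 48 tested chromatin cDNAs rose and 3 fell relative to wild type panicles. A change was called at a Benjamini-Hochberg adjusted p under 0.05 in limma, adjusted over all 18094 tested probes, of which 20.4% were called higher and 21.3% lower. The chromatin cDNAs thus had 33.3% called higher and 6.25% called lower, 19 calls in all, where 41.7% of all tested probes were called in either direction. Each value is a log2 ratio, transgenic over wild type panicles, written as mean ± SE (n = 4 arrays except where another n stands). The median log2 ratio was 0.16 for the chromatin cDNAs and -0.0016 for all tested probes, and 34 of the 48 lay above 0. On all 4 arrays alike, 18 of the 48 lay above 0 (23.1% of all tested probes did) and 4 lay below 0 (21.2%). Most changes were small. A rise of at least 1.5-fold was called for 5 of the 48 (8.04% of all tested probes), while 14 of the 19 calls were changes of under 1.5-fold. Called changes ran from -0.56 for AK069520 to 1.04 for AK069900, and 27 cDNAs were called neither in the mean, nor in a construct, nor in the difference between constructs.

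The SE rests on the gap between arrays within a construct, so disagreement between the constructs does not enter it. With construct as a random block, 7 cDNAs were called higher and 0 lower (12 and 0 at an unadjusted p under 0.05), and all 7 were also called higher in each construct on its own. With each construct averaged into 1 value, limma called 0 higher and 0 lower (9 and 0 at an unadjusted p under 0.05). With median centring of each array in place of loess, 1 was called higher, AK069900, and 0 lower (5 and 1 at an unadjusted p under 0.05). The mean then moved by over 1.5 times for AK071228 (-0.78), AK063535 (-0.20), AK072349 (0.51), AK101745 (0.15) and AK103397 (0.51). Calls over all probes shrank with them, to 1219 higher and 1391 lower with the random block, to 0 and 0 with averaged constructs and to 574 and 543 with median centring, from 3695 and 3848. Without dsRNAi replicate 2, 5 cDNAs were called lower in the mean.

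**Figure D1:**
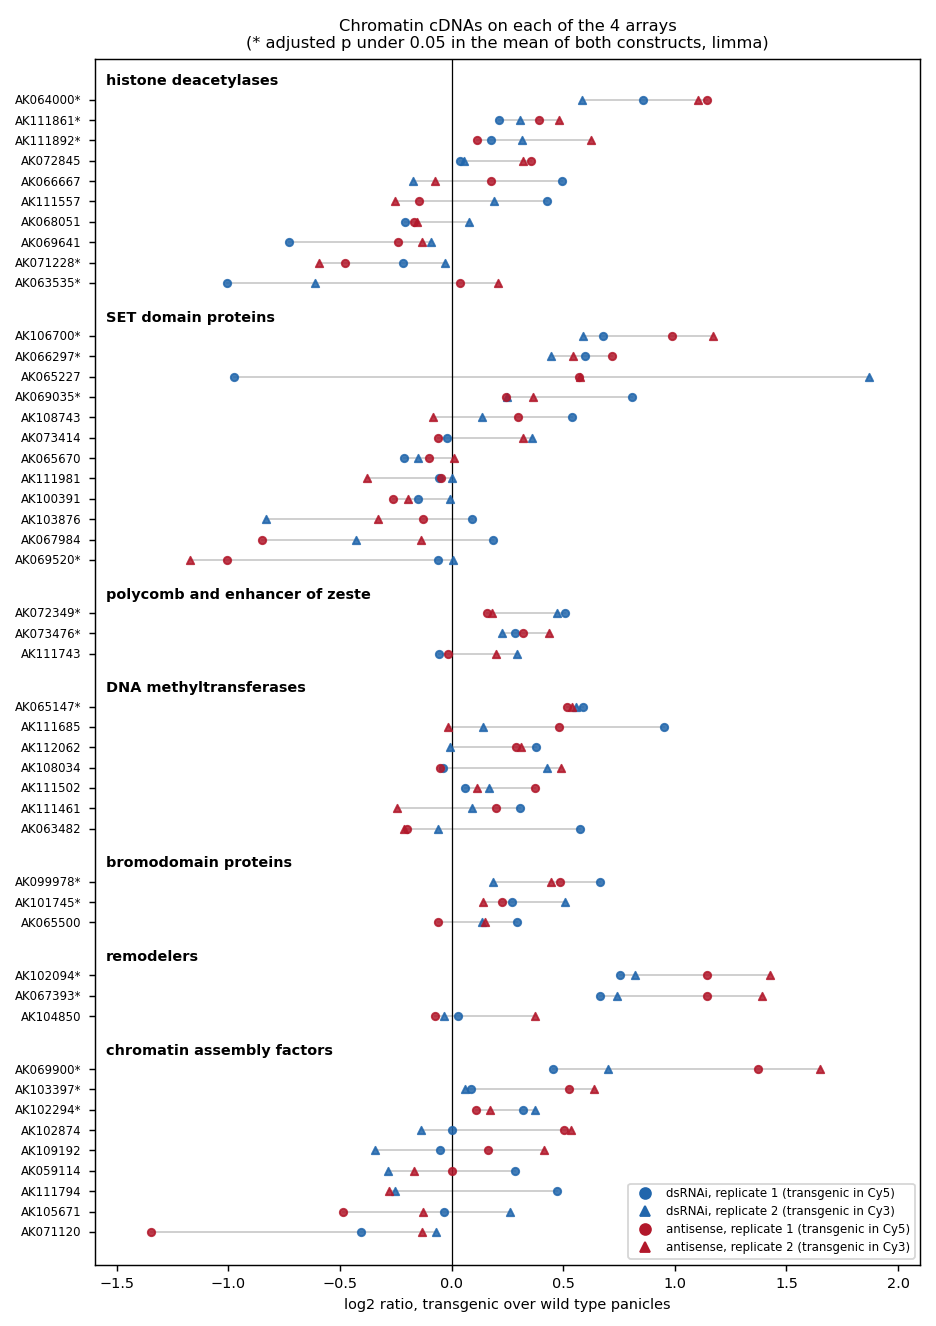
Each row is 1 of 47 of the 48 tested chromatin cDNAs, grouped by class, and the horizontal axis is the log2 ratio of transgenic over wild type panicles. Blue marks the dsRNAi arrays and red the antisense arrays, circles have the transgenic RNA in Cy5 and triangles in Cy3, grey lines span the arrays and an asterisk marks an adjusted p under 0.05 in the mean; the remodelers AK102094 and AK067393 and the deacetylase AK064000 lie above 0.5 on every array, while AK065227 spans from -0.97 to 1.87.

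Of 10 tested histone deacetylases, 3 rose and 2 fell in the mean of both constructs (30% and 20%, where 20.4% and 21.3% of all tested probes did), with a median of 0.080. The 3 cDNAs described as the rice deacetylase HD1 did not move together. This HD1 is a histone deacetylase and not the flowering regulator Hd1. AK064000, described as HD1, gave log2 ratios of 0.86 and 0.59 on the dsRNAi arrays and 1.14 and 1.10 on the antisense arrays. It was higher than wild type on every array and rose by 0.92 ± 0.084 (adjusted p = 9.13e-05). AK071228, also described as HD1, gave -0.22 and -0.029 on the dsRNAi arrays and -0.48 and -0.59 on the antisense arrays and fell, with a mean of -0.33 ± 0.082 (adjusted p = 0.0141). The mean differed with the signals used, at -0.57 with offset 10, -1.003 with the scanner ratio and -1.08 with the submitters' series table, all called. Its call was lost without dsRNAi replicate 1 or antisense replicate 2. Its wild type signal was not well above background on either dsRNAi array, so its dsRNAi log2 ratios above are not measured folds. The transgenic signal of AK071228 was well above background on only 1 antisense and 1 dsRNAi array. Its antisense ratios and its mean thus rest partly on signal near background. AK068051, the remaining HD1 cDNA, stood at -0.11 ± 0.085 (adjusted p = 0.329). The dsRNAi arrays lay on both sides of 0 for it and the antisense arrays below 0.

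Deacetylases of the plant-specific HD2 family were also represented by 3 cDNAs. AK063535 gave -1.01 and -0.61 on the dsRNAi arrays and 0.039 and 0.21 on the antisense arrays, below 0 on both dsRNAi arrays and above 0 on both antisense arrays, and its mean was -0.34 ± 0.095 (adjusted p = 0.0220). Its call in the mean was lost without dsRNAi replicate 1 or antisense replicate 1, and also with the scanner ratio or the series table. AK072845, the cDNA with the highest mean intensity of all deacetylases, gave 0.038 and 0.055 on the dsRNAi arrays and 0.35 and 0.32 on the antisense arrays. All its arrays were above 0, with a mean of 0.19 ± 0.077 (adjusted p = 0.0819) that missed the threshold and a called rise of 0.34 with antisense alone (adjusted p = 0.0438). AK069641, the third HD2 cDNA, stood at -0.30 ± 0.11 (adjusted p = 0.0688). Among deacetylases named after other plants, the one described as maize HDA108 (AK111861) rose by 0.35 ± 0.078 (adjusted p = 0.00925). AK111892, described as Arabidopsis At5g61060 (HDA5), rose by 0.31 ± 0.10 (adjusted p = 0.0463). That call was lost without dsRNAi replicate 1, dsRNAi replicate 2 or antisense replicate 2, the mean being 0.18 in the last case. It was also lost with offset 10, the scanner ratio, the series table, no filter on dim probes or averaged antisense arrays. Maize HDA102 (AK066667) stood at 0.11 ± 0.12 and maize HDA110 (AK111557) at 0.054 ± 0.084, with adjusted p = 0.522 and 0.648. For AK111557 both dsRNAi arrays were above 0 and both antisense arrays below.

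Among SET domain proteins, 3 of 12 tested cDNAs rose and 1 fell in the mean, with a median of 0.017. The shares were 25% higher and 8.33% lower, beside 20.4% and 21.3% of all tested probes. The risers are described by maize SET numbers, which name the domain and not a known target. AK106700 (maize SET118) gave 0.68 and 0.59 on the dsRNAi arrays and 0.99 and 1.17 on the antisense arrays, above 0.5 on every array, and rose by 0.86 ± 0.081 (adjusted p = 0.000111). AK066297 (maize SET104) gave 0.60 and 0.45 on the dsRNAi arrays and 0.72 and 0.54 on the antisense arrays and rose by 0.58 ± 0.082 (adjusted p = 0.000950). Both were among the 7 cDNAs called higher in each construct on its own. AK069035 (maize SET105), the SET cDNA with the highest mean intensity, gave 0.81 and 0.25 on the dsRNAi arrays and 0.24 and 0.36 on the antisense arrays and rose by 0.41 ± 0.11 (adjusted p = 0.0163). All its arrays were above 0, and without dsRNAi replicate 1 the mean was 0.27 and was not called. The call was also lost with the scanner ratio.

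The SET cDNA that fell is described as Arabidopsis At2g35160, known there as SUVH5, which methylates histone H3 in silent chromatin. AK069520 gave -0.061 and 0.0059 on the dsRNAi arrays and -1.01 and -1.17 on the antisense arrays, and its mean was -0.56 ± 0.080 (adjusted p = 0.000977). It lay below wild type by more than 1 log2 unit on both antisense arrays and close to wild type on both dsRNAi arrays. Other relatives of that family are the cDNAs described as Arabidopsis SUVR2, which acts in gene silencing. Of these, AK067984 stood at -0.31 ± 0.14 (adjusted p = 0.126) and AK100391 at -0.15 ± 0.079 (adjusted p = 0.161). AK103876, described as Arabidopsis At2g19640 (ASHR2), stood at -0.30 ± 0.14 (adjusted p = 0.137). None of these 3 was called, although their means all lay below 0. The remaining tested SET cDNAs were described as maize SDG117 (AK108743), SET102 (AK073414), SDG110 (AK065670) and SET123 (AK111981) and had means from -0.12 to 0.22, none of them called.

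AK065227, described as maize SDG113, had the widest spread of all the chromatin cDNAs. It gave -0.97 and 1.87 on the dsRNAi arrays and 0.57 and 0.57 on the antisense arrays. Its 2 dsRNAi arrays thus opposed each other, the antisense arrays matched, and the mean of 0.51 ± 0.38 (adjusted p = 0.319) was not called.

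In the polycomb and enhancer of zeste class, 2 of 3 cDNAs rose and 0 fell (2 and 0 at an unadjusted p under 0.05), with a median of 0.32. Of all tested probes, 20.4% rose and 21.3% fell. Both risers are described as maize enhancer of polycomb (epc101). In yeast this protein is a subunit of the NuA4 histone acetyltransferase and not a Polycomb repressor. AK072349 gave 0.51 and 0.47 on the dsRNAi arrays and 0.16 and 0.18 on the antisense arrays and rose by 0.33 ± 0.077 (adjusted p = 0.0108). AK073476 gave 0.28 and 0.23 on the dsRNAi arrays and 0.32 and 0.44 on the antisense arrays. It rose by 0.32 ± 0.078 (adjusted p = 0.0142), a call lost without antisense replicate 2 or with averaged antisense arrays. Every array was above 0 for both cDNAs, which share a description and may represent the same gene. The Polycomb cDNA proper, AK111743, described as maize enhancer of zeste-like mez1, gave -0.056 and 0.29 on the dsRNAi arrays and -0.015 and 0.20 on the antisense arrays. It straddled 0 within each construct and stood at 0.11 ± 0.093 (adjusted p = 0.407).

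Of 7 tested DNA methyltransferases, 1 rose and 0 fell in the mean (3 and 0 at an unadjusted p under 0.05), with a median of 0.21. This made 14.3% higher and 0% lower, beside 20.4% and 21.3% of all tested probes. The riser is described as maize Zmet3, of the DRM type that places new cytosine methylation. AK065147 gave 0.59 and 0.56 on the dsRNAi arrays and 0.51 and 0.54 on the antisense arrays and rose by 0.55 ± 0.077 (adjusted p = 0.000854). These 4 values lay within 0.1 of each other, and it was called higher in each construct on its own, at 0.57 (adjusted p = 0.00718) with dsRNAi and 0.53 (adjusted p = 0.00696) with antisense. MET2a (AK111685) was next with 0.39 ± 0.14 (adjusted p = 0.0649), its arrays running from -0.015 to 0.95. DMT105 (AK112062), the brightest of the class, gave 0.38 and -0.0083 on the dsRNAi arrays and 0.29 and 0.31 on the antisense arrays and stood at 0.24 ± 0.091 (adjusted p = 0.0693). Neither passed the threshold, although 3 of 4 arrays lay above 0 for each. MET1 (AK111461), the enzyme that maintains CG methylation through replication, stood at 0.088 ± 0.100 (adjusted p = 0.524). DMT101 (AK108034), ZMET4 (AK111502) and DMT106 (AK063482) had means of 0.21, 0.18 and 0.025, none of them called.

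Bromodomain proteins had 2 rises and 0 falls among 4 tested cDNAs (the same counts at an unadjusted p under 0.05), with a median of 0.21. All tested probes had 20.4% rises and 21.3% falls. AK099978, described as maize brd103 and the brightest of the class, gave 0.67 and 0.19 on the dsRNAi arrays and 0.49 and 0.44 on the antisense arrays and rose by 0.45 ± 0.099 (adjusted p = 0.00852). AK101745 is described as human BAZ1A, an accessory subunit of ISWI remodelers, and rose by 0.28 ± 0.083 (adjusted p = 0.0276). It lay above 0 on every array, but the call was lost without dsRNAi replicate 2, antisense replicate 1 or antisense replicate 2. Averaging the antisense arrays also ended it. Its mean was 0.43 with offset 10, 0.53 with the scanner ratio and 0.50 with the series table, all called. AK065500, described as a mouse bromodomain and PHD finger protein, stood at 0.13 ± 0.084 (adjusted p = 0.263).

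Of 3 remodelers, 2 rose and 0 fell (2 and 0 at an unadjusted p under 0.05), where 20.4% of all tested probes rose and 21.3% fell. AK102094 is described as human SMARCA3, a SWI/SNF family ATPase, and gave 0.76 and 0.82 on the dsRNAi arrays and 1.15 and 1.42 on the antisense arrays. It rose by 1.04 ± 0.085 (adjusted p = 5.14e-05). AK067393 is described as human WCRF180, another name of the BAZ1A protein given for AK101745, and gave 0.66 and 0.74 on the dsRNAi arrays and 1.15 and 1.39 on the antisense arrays. It rose by 0.98 ± 0.084 (adjusted p = 6.15e-05), so both cDNAs with a name of this ISWI partner were higher than wild type, by different amounts. AK104850, described as a human SMARCA-like protein of subfamily a-like 1, gave 0.028 and -0.035 on the dsRNAi arrays and -0.074 and 0.38 on the antisense arrays and stood at 0.074 ± 0.096 (adjusted p = 0.584), with the arrays of each construct on both sides of 0.

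Chromatin assembly factors had 3 rises and 0 falls among 9 cDNAs in the mean (4 and 1 at an unadjusted p under 0.05), with a median of 0.045. These shares were 33.3% and 0%, beside 20.4% higher and 21.3% lower over all tested probes. The NFD type, as named in Arabidopsis, are proteins with an HMG box, the NFA type belong to the NAP1 family of histone chaperones, and the NFC type are MSI-like WD40 proteins that bind histones. AK069900, described as maize NFD106, gave 0.45 and 0.70 on the dsRNAi arrays and 1.37 and 1.65 on the antisense arrays and rose by 1.04 ± 0.090 (adjusted p = 6.82e-05), the largest mean of all 48 cDNAs. Its antisense arrays lay above its dsRNAi arrays without overlap. Of the NFC type, AK103397 (nfc104) rose by 0.33 ± 0.078 (adjusted p = 0.0117), a call lost without antisense replicate 2 (adjusted p = 0.0663). AK103397 gave 0.088 and 0.058 on the dsRNAi arrays and 0.53 and 0.64 on the antisense arrays. Its rise was called with antisense (0.58, adjusted p = 0.00468) and not with dsRNAi (0.073, adjusted p = 0.685). The difference between constructs was not called for it (adjusted p = 0.0664). AK059114 (nfc103) stood at -0.042 ± 0.11 (adjusted p = 0.792). AK111794 (nfc102), the brightest of the class, gave 0.47 and -0.25 on the dsRNAi arrays and -0.28 on 1 antisense array, its other spot being left out as an outlier. Its mean over 3 arrays was -0.085 ± 0.16 (adjusted p = 0.710).

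The NFA type had 5 cDNAs that did not move alike. AK102294 (nfa104) rose by 0.24 ± 0.077 (adjusted p = 0.0377), a call lost without any 1 of the 4 arrays. It was also lost with offset 10, the scanner ratio or averaged antisense arrays. AK102874, with the same description, gave -0.00046 and -0.14 on the dsRNAi arrays and 0.50 and 0.53 on the antisense arrays, and its mean was 0.23 ± 0.079 (adjusted p = 0.0531). Its antisense arrays lay above 0 and its dsRNAi arrays at or below 0. AK109192, the third nfa104 cDNA, stood at 0.045 ± 0.091 (adjusted p = 0.734). The nfa102 cDNAs AK071120 and AK105671 stood at -0.49 ± 0.18 (adjusted p = 0.0637) and -0.097 ± 0.098 (adjusted p = 0.465). For AK071120 the antisense arrays gave -1.35 and -0.13, a gap wider than its mean.

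**Figure D2:**
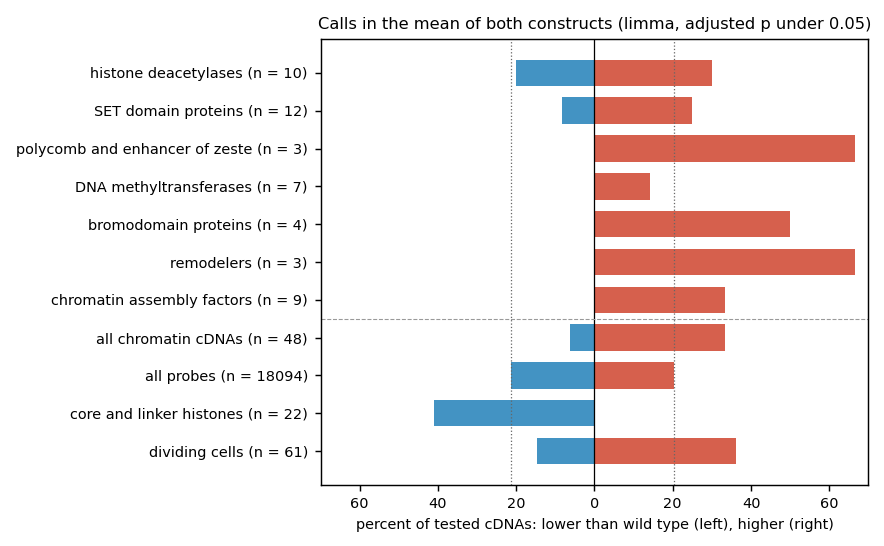
Bars give the percent of tested cDNAs called lower than wild type (blue, to the left of 0) and higher than wild type (red, to the right) in the mean of both constructs, limma adjusted p under 0.05, for each class, for all 48 chromatin cDNAs, for all 18094 tested probes and for the histone and dividing cell lists; dotted lines mark the 20.4% higher and 21.3% lower of all probes. The classes hold 3 to 12 cDNAs, and the core and linker histones had 0 called higher and 9 of 22 called lower.

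Histones and other genes that work with the chromatin proteins were listed beside them. Of 22 core and linker histone cDNAs, 0 rose and 9 fell in the mean by limma (1 and 10 at an unadjusted p under 0.05), where 20.4% of all tested probes rose and 21.3% fell, with a median of -0.17. With dsRNAi 2 histone cDNAs fell and 1 rose, where 14.6% of all tested probes fell and 11.2% rose. With antisense 8 fell and 1 rose, where 18.3% of all tested probes fell and 18.8% rose. The difference between constructs was called for 9 of the 22, all with the higher ratio in dsRNAi. Over all tested probes, 6.32% were called higher with dsRNAi and 10.1% lower. The summed intensity of the histone list was 244828 to 307578 in dsRNAi panicles against 250625 to 251339 in the wild type panicles of the same arrays, and 274375 to 279363 in antisense panicles against 316671 to 441325 in theirs. The transgenic sums thus overlapped between constructs, while the wild type sums of the antisense arrays lay above those of the dsRNAi arrays. The list of chaperones had 3 of 4 cDNAs higher and 0 lower (the same counts at an unadjusted p under 0.05), among them the histone chaperone ASF1 (AK103746, 0.64 ± 0.091 (adjusted p = 0.000944)) and a nucleosome assembly protein of the NAP1 family (AK071177, 0.51 ± 0.10 (adjusted p = 0.00691), n = 3 arrays). The third, the maize retinoblastoma-related RRB1 (AK064987), is a cell cycle regulator caught by its name. The uncalled AK072184, described as human RBBP2H1, a retinoblastoma binding protein homologue, was also listed by name alone. In the S-adenosylmethionine cycle, which supplies the methyl groups, 1 of 4 tested cDNAs rose and 1 fell in the mean. Both are S-adenosylmethionine synthetases (AK103157, 0.51, and AK071516, -0.63). With dsRNAi 3 of the 4 fell and 0 rose, and with antisense 1 rose and 1 fell. The difference between constructs was called for 3 of the 4, all with the lower ratio in dsRNAi. AK103157 stood at 0.95 with antisense and 0.061 with dsRNAi. Argonaute proteins carry small RNAs, only some of which guide DNA methylation. Their cDNAs had 1 rise and 1 fall among 7 (AK111996, 0.29, and AK069685, -1.54). Both of these are described as Arabidopsis At1g48410, and a part in DNA methylation was not tested.

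In the list of dividing cell markers, more cDNAs rose than fell. The list was drawn by name and takes in kinesins and DNA polymerases of any role. Among them are kinesin light chains and DNA polymerase eta, so it is not a measure of dividing cells alone. Of 61 tested cyclin, MCM, PCNA, kinesin and DNA polymerase cDNAs, 22 rose and 9 fell in the mean, with a median of 0.19. The shares were 36.1% higher and 14.8% lower, beside 20.4% and 21.3% of all tested probes. The summed intensity of the 71 cDNAs on this list was 55860 to 59302 in dsRNAi panicles and 59113 to 60857 in antisense panicles, against 48180 to 52302 in wild type panicles, with no overlap between transgenic and wild type. Of the 71, 55 were well above background in every channel and 7 never were. The part of dividing cells in the rises was not tested.

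With each construct on its own, more chromatin cDNAs rose than fell. With dsRNAi, 10 of 48 rose and 1 fell, where 11.2% of all tested probes were called higher and 14.6% lower (25.8% in all), and the median was 0.18. With antisense, 13 rose and 2 fell, where 18.8% of all tested probes were called higher and 18.3% lower (37.2% in all), and the median was 0.15. With antisense, 7 rose without antisense replicate 1 and 6 without antisense replicate 2, and the rises called over all probes were 2302 and 2478 in these settings, against 3407 with all arrays. Falls were 4 with antisense when either dsRNAi array was left out, and with dsRNAi they were 2 without dsRNAi replicate 1 and 3 without dsRNAi replicate 2. With median centring 0 were called in either construct and direction, and at an unadjusted p under 0.05 limma then called 0 with dsRNAi and 5 higher with antisense. Calls over all probes shrank as well, to 64 higher and 135 lower with dsRNAi, from 2030 and 2644. With antisense they shrank to 479 higher and 383 lower, from 3407 and 3315. In each construct on its own, 7 cDNAs rose (7.7% of all tested probes did), and 0 fell in both by limma (8.64%). They were the assembly factor AK069900, the remodelers AK102094 and AK067393, the deacetylase AK064000, the SET proteins AK106700 and AK066297 and the DNA methyltransferase AK065147. The rise was larger with antisense in 6 of the 7, for instance 0.79 with dsRNAi and 1.28 with antisense for AK102094, although the difference itself was called for AK069900 alone. For the other 6 the adjusted p of the difference was 0.0594 to 0.884.

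**Figure D3:**
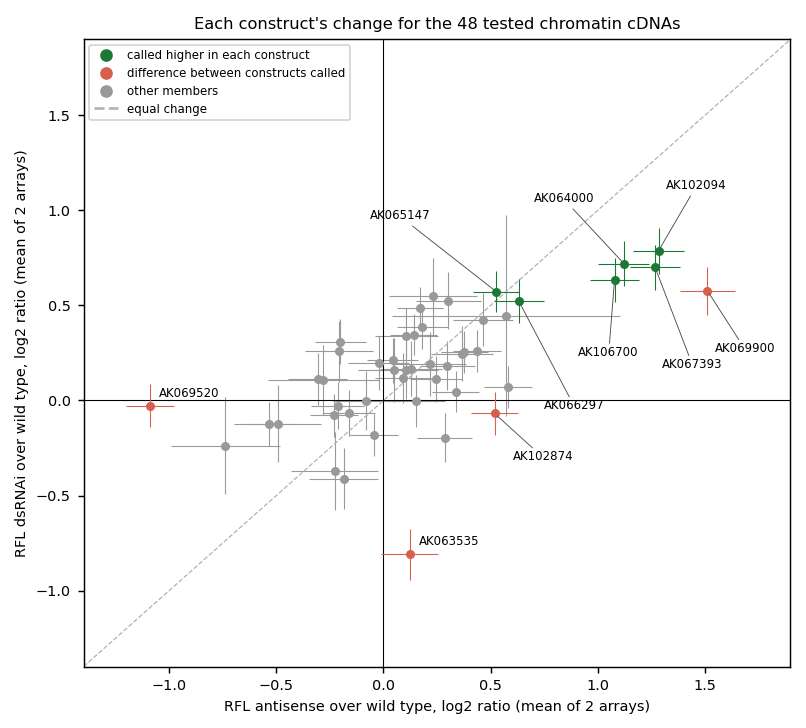
The vertical axis is the log2 ratio of dsRNAi over wild type panicles and the horizontal axis that of antisense over wild type panicles, each the mean of 2 arrays with limma's SE as bars, for the 48 tested chromatin cDNAs. Green marks cDNAs called higher in each construct, orange those whose difference between constructs was called (AK069900 belongs to both), and the dashed line marks equal change; the green points other than AK065147 lie below that line.

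The difference between constructs, dsRNAi minus antisense, was called for 4 of 48 chromatin cDNAs, 1 higher and 3 lower with dsRNAi, where 6.32% of all tested probes were called higher and 10.1% lower (16.4% in all). AK069520, the SUVH5-like SET cDNA, differed by 1.06 ± 0.16 (adjusted p = 0.00411), with -0.028 (adjusted p = 0.889) with dsRNAi and -1.09 (adjusted p = 0.000211) with antisense. AK069900, the NFD106-like assembly factor, differed by -0.94 ± 0.18 (adjusted p = 0.0119), with 0.58 (adjusted p = 0.0141) with dsRNAi and 1.51 (adjusted p = 7.14e-05) with antisense. It was higher than wild type with both constructs, and more so with antisense. AK063535, the HD2-like deacetylase, differed by -0.93 ± 0.19 (adjusted p = 0.0148), with -0.81 (adjusted p = 0.00393) with dsRNAi and 0.12 (adjusted p = 0.528) with antisense. AK102874, the nfa104 assembly factor, differed by -0.59 ± 0.16 (adjusted p = 0.0425), with -0.068 (adjusted p = 0.711) with dsRNAi and 0.52 (adjusted p = 0.00830) with antisense. The last call was the weakest and was lost without dsRNAi replicate 1 (adjusted p = 0.0662), dsRNAi replicate 2 (adjusted p = 0.129), antisense replicate 1 (adjusted p = 0.135) or antisense replicate 2 (adjusted p = 0.155). With the submitters' series table in place of the scanner signals, 1 of the 4 calls was left, that of AK069520 (adjusted p = 0.0264), and with median centring 0 were (0 at an unadjusted p under 0.05). Calls of a difference over all probes shrank too, from 2965 to 1794 with the series table and to 36 with median centring.

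Set apart by channel, 3 of these 4 cDNAs differed between the wild type panicles of the dsRNAi and antisense arrays. With the channels fitted separately in limma, dsRNAi minus antisense was called for 0 of 47 cDNAs in the transgenic channels (6 at an unadjusted p under 0.05; 2.47% of all probes were called) and for 9 of 47 in the wild type channels (32.4% of all probes). AK069520 had log2 intensities of 7.66 and 7.61 in dsRNAi panicles and 7.72 and 7.60 in wild type panicles on the same arrays, and 7.89 and 7.91 in antisense panicles against 8.90 and 9.08 in their wild type panicles. Its wild type difference, dsRNAi arrays minus antisense arrays, was -1.33 (adjusted p = 4.26e-05), and the transgenic difference was -0.27 (adjusted p = 0.316). AK069900 had 9.73 and 9.58 in dsRNAi panicles and 9.27 and 8.88 in wild type panicles on the same arrays, and 9.70 and 9.55 in antisense panicles against 8.32 and 7.90 in their wild type panicles, a wild type difference of 0.97 (adjusted p = 0.00221) beside 0.030 in the transgenic channels (adjusted p = 0.957). The dsRNAi and antisense panicles of these genes thus had nearer levels than the wild type panicles they were hybridized with. AK102874 likewise differed by 0.69 between wild type panicles (adjusted p = 0.00417) and by 0.10 in the transgenic channels (adjusted p = 0.776). AK063535 was the exception, at -0.60 ± 0.34 in the transgenic channels (adjusted p = 0.415) and 0.33 ± 0.34 in the wild type channels (adjusted p = 0.490), neither called. It had 9.61 and 10.90 in dsRNAi panicles and 10.61 and 11.51 in wild type panicles on the same arrays, so its dsRNAi arrays differed in level. In antisense panicles it had 10.79 and 10.91, against 10.75 and 10.70 in their wild type panicles. The other wild type channel calls were AK102094 (0.37), AK067393 (0.45), AK071228 (-0.57), AK063482 (-0.69), AK071120 (-0.77) and AK105671 (-0.53). For AK071228 the wild type signal was not well above background on either dsRNAi array, so its value is not a measured fold.

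**Figure D4:**
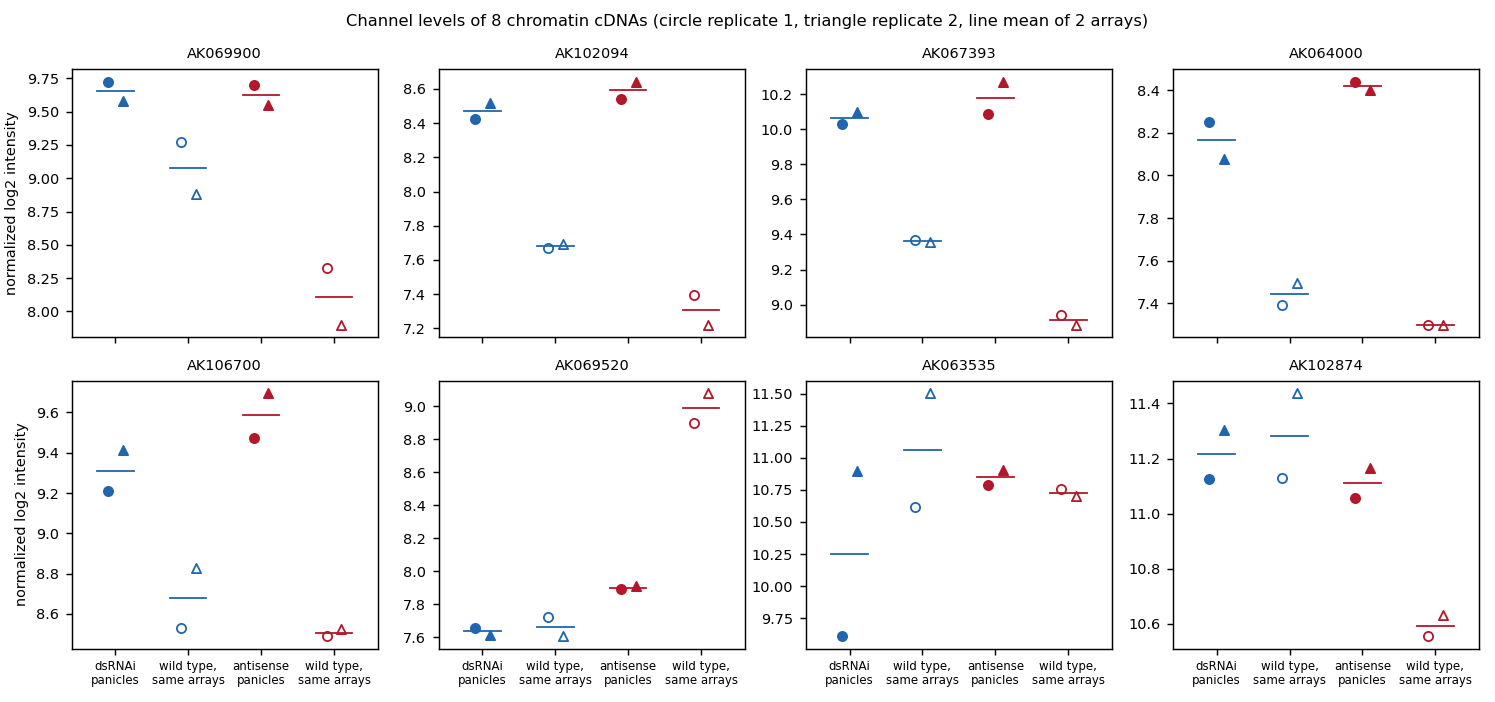
Each panel shows the normalized log2 intensity of 1 cDNA by channel group, with dsRNAi arrays in blue and antisense arrays in red, filled symbols for transgenic and open symbols for wild type panicles, circles for replicate 1, triangles for replicate 2 and lines for the mean of 2 arrays; the vertical axes differ between panels and do not start at 0. In the upper row every transgenic value lies above the wild type values of its own arrays, while for AK069520 the antisense arrays' wild type panicles, at 8.90 and 9.08, stand above the other groups.

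The spread between arrays of 1 construct was measured for each cDNA. The SE of the mean ran from 0.077 to 0.38 with a median of 0.091 over the 48 cDNAs. The log2 ratios of the dye-exchanged dsRNAi arrays differed by a median of 0.24 and at most 2.84, with 10 cDNAs over 0.5. Those of the antisense arrays differed by a median of 0.17 and at most 1.21, with 5 cDNAs over 0.5. Over the chromatin cDNAs, the dsRNAi arrays correlated at 0.14 (n = 48), or at 0.52 with AK065227 left out (n = 47), and the antisense arrays at 0.83 (n = 47). Over all tested probes the same pairs correlated at 0.83 and 0.93; these are descriptions across probes of the same hybridizations, which are not independent.

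The 4 chromatin cDNAs that did not pass the filter were the mouse Fsrg3-like bromodomain cDNA AK111203, the DMT106 cDNA AK067302, the SDG117 cDNA AK106720 and the RPD3A cDNA AK064282. RPD3A is an Arabidopsis deacetylase also called HDA19. The first 3 were not well above background in either channel of any array, and AK064282 was well above background in the transgenic channel of 1 array alone, so no fold is given for any of them. The second DMT106 cDNA (AK063482) and the second SDG117 cDNA (AK108743) were measured, at 0.025 and 0.22, and neither was called in the mean.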

How the data were processed

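RNA of RFL dsRNAi, RFL antisense and wild type panicles was hybridized to 4 two-colour arrays. The authors read spot intensity of each dye with Agilent Feature Extraction, per the file headers, in version 9.1.3.1 (dsRNAi arrays) or 8.1.1.1 (antisense arrays). The deposited log10 ratio (red over green) carries that software's background correction and dye normalization, per the file headers. For the log2 ratios of the deposited series table, no processing is stated in the sources used here. Its rows, taken in probe name order, correlated with the scanner ratio at 0.839 and 0.852 (dsRNAi) and 0.959 and 0.975 (antisense), which gave scale and direction (Cy5 over Cy3); the centring is unknown, and the column medians turned to transgenic over wild type were 0.0842, 0.0521, -0.0046 and -0.0366. On arrays with exchanged dyes the label fields and the labelling text disagree on the dye, and the label fields were followed.

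Mean spot signals were corrected for the median background by limma's normexp (offset 50), then loess was run within arrays (control spots weighted 0, outlier spots dropped). The filter kept 18096 probes that 2 or more arrays showed well above background in some channel, and 18094 could be tested. With ratios turned to transgenic over wild type, limma 3.58.1 (R 4.3.3) estimated a coefficient for each construct, followed by eBayes and Benjamini-Hochberg adjustment (threshold 0.05). Channels were fitted separately with lmscFit after Aquantile (intraspot correlation 0.238, statmod 1.5.0). Array number limits the precision. Scripts were tested on simulated data. Figures used Python 3.11.15, pandas 2.3.3, numpy 2.4.6 and matplotlib 3.10.9.

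Genes described at length are the 8 largest called rises and falls with the same sign on all arrays, the 6 largest called differences between constructs and the brightest cDNA of each class; 17 met this rule, and the rest are named to account for the cDNAs and lists. The values of 1 tested cDNA are not reported here singly. The cDNAs and lists were chosen with earlier results of these data known. The reference table listed 0 of the 52 accessions; names are therefore those in the files, and no sequence or position is given. The alternatives were offset 10, the scanner ratio, the series table, median centring, no filter, each array left out, averaged arrays, construct as a random block, a dye term and quantile in place of Aquantile. Replicate numbers follow sample order and pair nothing. A slide block was not run, since each of 4 slides held 1 array and scan day coincided with construct.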

Additional observations from a re-analysis of the deposited data

Results flagged for a closer look

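The difference between constructs, dsRNAi minus antisense, passed limma's test for 4 of the 48 chromatin cDNAs, where 16.4% of all tested probes passed. AK069520 (Arabidopsis At2g35160-like, a SET protein) differed by 1.06, AK069900 (maize NFD106-like) by -0.94, AK063535 (rice HD2) by -0.93 and AK102874 (maize nfa104-like) by -0.59 on the log2 scale. Median centring ended all 4 calls, and 0 of the 48 cDNAs then differed at an unadjusted p under 0.05. It also cut such calls over all probes from 2965 to 36. The scanner ratio ended that of AK063535 (adjusted p = 0.0769) and AK102874 (0.135). Construct coincided with scan day and software version, and the cause was not tested.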

How the results depend on the processing

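Counts of chromatin cDNAs called higher and lower in the mean of both constructs (16 and 3) were 1 and 0 with median centring, 0 and 0 with each construct averaged (9 and 0 at an unadjusted p under 0.05) and 7 and 0 with construct as a random block (correlation 0.413), and 5 were lower with a dye term. With median centring, the counts were 0 higher and 0 lower with dsRNAi (10 and 1), 0 and 0 with antisense (13 and 2) and 0 for the difference between constructs (4), which was 1 with the series table. Median centring left 64 and 135 calls over all probes with dsRNAi (2030 and 2644) and 479 and 383 with antisense (3407 and 3315). For the difference, calls over all probes were 36 with median centring and 1794 with the series table (2965). Of the 19 calls in the mean, 11 were kept without each array in turn and 8 were lost at least once; the cause was not tested. Leaving out each array gave 12 to 15 higher and 2 to 5 lower in the mean, 7 to 11 and 1 to 3 with dsRNAi, 6 to 14 and 2 to 4 with antisense, and 3 to 5 for the difference. A construct left with 1 array was assumed to vary like the other. Offset 10, the scanner ratio, no filter and averaged antisense arrays kept these counts within 1.5 times, and quantile in place of Aquantile kept both channel counts. Single calls in the mean were still lost, that of AK111892 with offset 10, the scanner ratio, no filter and averaged antisense arrays alike. Under these alternatives no cDNA called in the mean or the difference changed sign, although AK071228 and AK101745 moved by over 1.5 times with offset 10, the scanner ratio and the series table, and AK102294 with the series table (0.38). Over all probes, calls in the mean were 3695 higher and 3848 lower, against 574 and 543 with median centring, 1219 and 1391 with the random block and 0 and 0 with averaged constructs. No paired analysis was possible because the labels number no replicates. A slide or scan block was not run. Signal limits the 4 cDNAs under the filter and AK071228, whose wild type signal was not well above background on the dsRNAi arrays. Its transgenic signal was well above background on only 1 array of each construct.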

Other observations

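Among the lists beside the chromatin cDNAs, 7 of 10 panicle and floral meristem cDNAs rose and 2 fell in the mean, and their summed intensity was 41426 to 42791 in dsRNAi panicles and 36743 to 40000 in antisense panicles, against 25610 to 25715 and 35464 to 40227 in the wild type panicles of the same arrays. Green tissue cDNAs had 5 rises and 8 falls among 32 tested. Anther and pollen cDNAs had 3 rises and 0 falls among 4 (4 and 0 at an unadjusted p under 0.05). Seed storage cDNAs had 0 of either among 5 by limma (1 and 0 at an unadjusted p under 0.05). Over all tested probes, 20.4% rose and 21.3% fell in the mean.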
